A study of Mus musculus with 4 samples.

Results

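The arrays of this mouse cortex series carry a number, 1 or 2, at the end of their titles, and the values divide by that number. The 2 arrays numbered 2 were set against the 2 arrays numbered 1, within each exposure that the titles name, so all 4 arrays of the series were used. RNA came from the cerebral cortex of female C57BL/6J mice, a common inbred strain, at 90 days of age. Nicotine or saccharin solution, the sweetener serving as vehicle, was given to dams from conception and withdrawn from the offspring at 21 days, and RNA of 4 animals was pooled before labelling. The 4 arrays are titled nicotine 2, titled saccharin 2, titled nicotine 1 and titled saccharin 1. The source name of each array states the other exposure than its title. Both arrays of a title share a source name, so a difference between the numbers within a title does not depend on which field is right. What the numbers stand for is not stated in the labels, which also do not say that the arrays hold separate pools.

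Values are deposited log2 expression values per probe set, a probe set being the group of short probes that reads one stretch of a transcript. Probe sets were chosen by mean level: 22551 of 45101 reached, as a mean over the 4 arrays, the median of the whole table, 4.04, and they name 12205 genes of 20737. At that limit, Niban3 at 4.0383 lay just inside with a shift of -0.30, and Chrna5, a nicotinic receptor subunit gene, at 4.0370 just outside with a shift of 0.03. That mean uses the same arrays as the shift. A probe set near the lowest value in either number can therefore pass through the other number alone. A shift is the value on array 2 minus the value on array 1 of the same title, and its mean and SD are over the 2 titles (n = 2). A probe set counts as shifted where it differs by over 2-fold, a log2 difference of 1, in the same direction in both titles. The comparison by number was selected on these same values, so what follows is a description without a test, and the number of arrays limits its precision.

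On arrays of this kind, RNA is copied starting from the poly-A tail and made into biotin-labelled RNA, so most probe sets lie near the 3′ end of a transcript. A gene is often read by several probe sets that cover other 3′ ends, introns or upstream exons, and these need not move together. Control probe sets read bacterial transcripts added by the laboratory, some before labelling and some just before hybridization, and ribosomal RNA, which has no poly-A tail.

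The numbers separated the arrays far more than the titles did. Across the probe sets at that level, Pearson's r was 0.980 between the 2 arrays numbered 2 and 0.995 between the 2 arrays numbered 1, as a description across probe sets. Between numbers it lay between 0.907 and 0.930, whichever titles were paired. The exposures differed by over 2-fold in 1364 probe sets (6.05%) within number 2 and in 211 (0.936%) within number 1. Number 2 differed from number 1 by over 2-fold in 4706 probe sets (20.9%) within titled nicotine and in 3723 (16.5%) within titled saccharin.

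Of the 22551 probe sets, 2029 were higher in number 2 in both titles (9.0%) and 838 were lower (3.72%). The higher ones included 880 over 4-fold and 113 over 16-fold, and the lower ones 147 over 4-fold and 31 over 16-fold. They belonged to 1585 genes on the higher side and 652 on the lower. The median shift of the higher ones was 2.32 in titled nicotine and 1.98 in titled saccharin, and the size was larger in titled nicotine in 1413 of them (69.6%). Of the lower ones the medians were -1.66 and -1.40, with the larger size again in titled nicotine in 572 (68.3%). Only 40 probe sets passed 2-fold in both titles in opposite directions. These counts have the scaling of the deposited values in them: with each array centred on its median, 1743 were higher and 1276 lower. Array medians were 3.99 and 4.09 in number 2, and 3.88 and 3.89 in number 1.

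**Figure D1:**
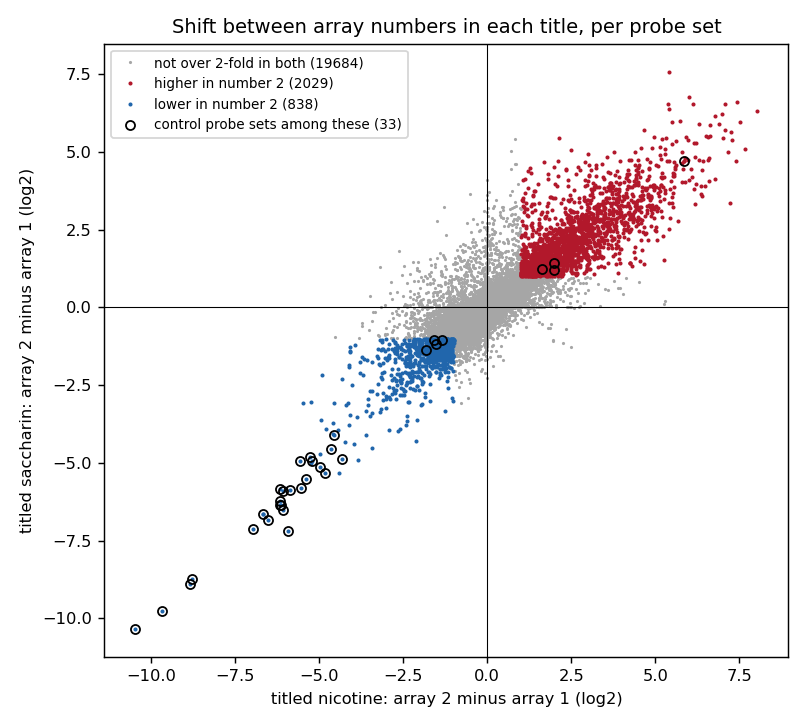
Each point is 1 of 22551 probe sets, with its log2 shift in titled nicotine on the x axis and in titled saccharin on the y axis. Red points (2029) are over 2-fold higher and blue points (838) over 2-fold lower in number 2 in both titles, and circles mark the control probe sets among them, most of which lie at the far lower left.

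At the probe set with the highest mean of each gene, fewer genes were shifted and the balance turned. Of 12205 genes, 273 were higher in number 2 (2.24%) and 373 lower (3.06%), and the median shift over all of these genes was -0.18. The shift was positive in both titles in 22.4% of genes and negative in both in 59.6%. Counts of gene groups below are set beside these values.

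The largest differences on the arrays belonged to control transcripts. The poly-A controls dap, lys, phe and thr, Bacillus subtilis messages that can be added to an RNA sample before labelling, were read by 24 probe sets, all of them lower in number 2. Their medians were 2.24 and 2.22 on titled nicotine 2 and titled saccharin 2, and 8.26 and 8.19 on titled nicotine 1 and titled saccharin 1. The brightest stretch of dap read 2.10 on both arrays numbered 2, the lowest value in the table, against 12.57 and 12.45 on the arrays numbered 1. The spikes were thus at or near the lowest value on the arrays numbered 2, between 2.10 and 3.87, while on the arrays numbered 1 they lay between 3.69 and 12.57.

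The hybridization controls bioB, bioC, bioD and cre, which join the sample only after labelling, differed much less. Their 18 probe sets had shifts between -1.60 and -0.29, and 4 of them were over 2-fold lower in both titles. Their medians were 10.45 and 10.63 in number 2, against 11.57 and 11.41 in number 1. Probe sets for 18S ribosomal RNA had shifts of -6.67 to -5.04, with medians of 9.38 and 9.91 in number 2 and 14.66 and 14.72 in number 1. In all 3 kinds of control the 2 arrays of a number stood close together.

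The control transcripts of the mouse itself, each read at a 3′, a middle and a 5′ stretch, did not share one pattern. For Actb, which encodes cytoplasmic actin, the mean shift was 0.81 ± 0.07 at the 3′ stretch, 1.44 ± 0.28 at the middle and 1.71 ± 0.41 at the 5′ stretch (SD, n = 2). For Pcx, the pyruvate carboxylase gene, the 3′ value exceeded the 5′ value by 5.64 and 6.57 in number 2 and by 6.72 and 6.84 in number 1. The step along the transcript was thus smaller in number 2 for Actb and Pcx. The Pcx 5′ stretch was dim, at 3.93 and 3.24 in number 2 and 3.25 and 3.23 in number 1. In titled saccharin its shift was 0.01, while that of the Pcx 3′ stretch was -0.26. The middle Pcx stretch named MB was higher in number 2, at 7.20 and 6.98 against 5.22 and 5.77 in number 1. For Gapdh, the glycolytic reference gene, the 3 stretches had shifts of 0.34, 0.52 and 0.53, none over 2-fold, and the 3′ value minus the 5′ value came to -0.14 and 0.01 in number 2, against 0.09 and 0.13 in number 1. For Tfrc, the transferrin receptor gene, the step was larger in number 2, at 2.17 and 4.77 against 0.14 and 0.07 in number 1. Its 3′ stretch read 8.36 and 7.12 in number 2 and 2.49 and 2.42 in number 1, which is near the lowest values of the table, and its 5′ stretch read 6.19 and 2.35 in number 2 and 2.35 on both arrays numbered 1. Each gene group described below moved between the same arrays as these controls, and the part of spikes, ribosomal RNA and 3′ profile in any of them was not tested.

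**Figure D2:**
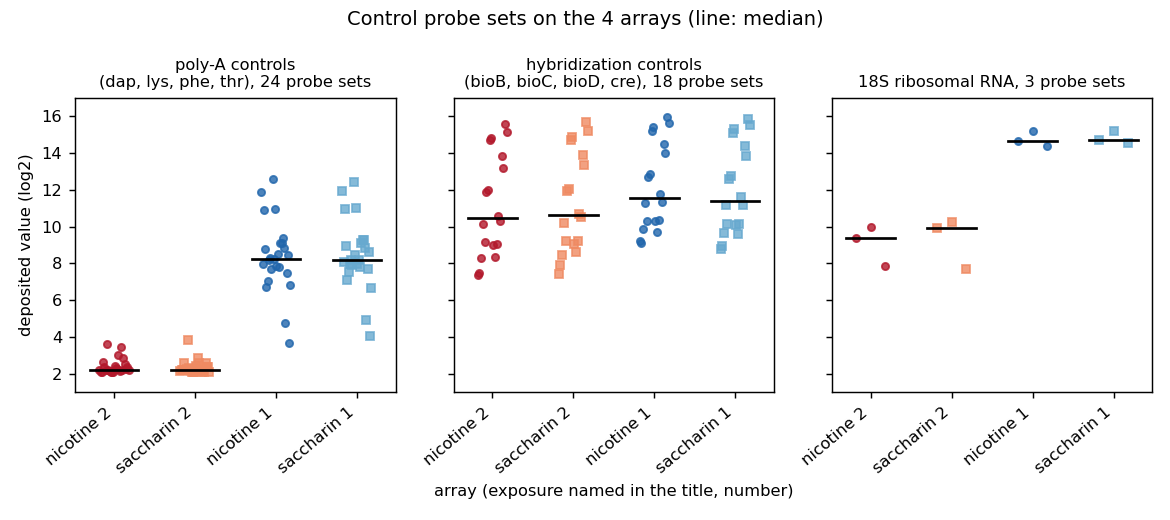
Log2 values of 24 poly-A, 18 hybridization and 3 ribosomal control probe sets (points) on the 4 arrays, number 2 on the left, with the median as a line. The poly-A medians are 2.24 and 2.22 in number 2 and 8.26 and 8.19 in number 1, while the ranges of the hybridization controls overlap between the numbers. Each of the 18 hybridization probe sets was lower in number 2, with shifts between -1.60 and -0.29.

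The 15 genes with the largest higher values in number 2 included several with known roles at the synapse. Arhgap32, a GTPase-activating protein gene, read 12.77 and 12.93 on titled nicotine 2 and titled saccharin 2, against 5.69 and 6.37 on titled nicotine 1 and titled saccharin 1, a shift of 6.82 ± 0.37 (SD, n = 2). Mpp2, a membrane scaffold gene, read 9.57 and 9.52 in number 2 and 4.06 and 4.26 in number 1, a shift of 5.39. Both arrays numbered 2 lay above both arrays numbered 1 by far more than the arrays of a number differed. Lrrc4b, a synaptic adhesion molecule gene, read 11.20 and 10.86 in number 2 and 7.28 and 6.90 in number 1. Dlgap2, a postsynaptic scaffold gene, stood at 8.67 and 8.13 in number 2 and at 3.27 and 4.75 in number 1. For Dlgap2 the arrays numbered 1 were themselves apart, and its SD of 1.43 is the widest among these 15 genes.

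Enzymes and a channel were also among the 15. The cation channel gene Trpc5 read 7.14 and 7.05 in number 2 and 2.98 and 2.76 in number 1, which puts it near the lowest values of the table in number 1. The diacylglycerol kinase gene Dgkh was shifted by 4.77 and Ppp4r4, a phosphatase regulatory subunit gene, by 4.20 ± 0.81. Ppp4r4 read 2.41 on both arrays numbered 1, so its shift is set against a value near the lowest. Other shifts were 4.52 for Sdr39u1 of the short-chain dehydrogenase family, 4.48 for Plekhj1, 3.85 for the microtubule linker gene Clip2 and 3.34 for Csmd1. A second Csmd1 probe set had a mean shift of -0.03.

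Among the same 15 were regulators of transcription and splicing. Rbfox2, a splicing factor gene, read 12.04 and 11.90 in number 2 and 8.11 and 8.13 in number 1, a shift of 3.84 ± 0.11 (SD, n = 2). Its other probe sets had shifts of 1.70 and 0.81. The orphan nuclear receptor gene Nr2c2 was shifted by 3.48 at one probe set and 4.26 at its other one, so every Nr2c2 probe set at the level studied was higher. Nr1d1, which encodes the clock repressor REV-ERB alpha, read 7.24 and 6.95 in number 2 and 3.73 and 3.75 in number 1.

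On the lower side, the 15 genes were led by an enzyme gene, and several were dim in number 2. Pik3cd, the catalytic subunit of a phosphoinositide kinase of leukocytes, read 6.62 and 6.52 in number 2 and 13.30 and 13.17 in number 1, a shift of -6.66 ± 0.02 (SD, n = 2). The other Pik3cd probe set was at 6.99 and 6.88 in number 2 and at 7.33 and 7.55 in number 1, a shift of -0.51. One probe set of this gene was thus about 101-fold lower while the other differed by less than 2-fold. Pam, whose enzyme amidates peptide hormones, read 6.51 and 6.12 in number 2 and 10.46 and 10.51 in number 1. Hsf2, a heat shock transcription factor gene, read 2.36 and 2.13 in number 2 and 7.33 and 6.86 in number 1. Rab5c, an early endosome GTPase gene, read 9.43 and 9.50 in number 2 and 12.00 and 12.09 in number 1, with an SD between titles of only 0.0058.

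Several of the lower genes were near the lowest value in number 2. Pigt, a subunit gene of the enzyme that attaches membrane anchors, read 2.20 on both arrays numbered 2, against 7.43 and 7.21 in number 1. Car3, a carbonic anhydrase gene, read 2.71 and 2.85 in number 2 and 5.81 and 5.83 in number 1. The remaining shifts were -3.97 for Zfp811, -3.67 for the protocadherin gene Pcdh15, -2.56 for the secreted kinase gene Pkdcc, -2.42 for the lipid flippase gene Atp8b1 and -2.40 for the transporter gene Slc16a6. The transcripts 2810410L24Rik, 2810043O03Rik, Gm10010 and 2610316D01Rik had shifts of -3.43, -3.26, -2.57 and -2.45. Where a second probe set was at the level studied, for 2810410L24Rik, Pkdcc and 2610316D01Rik, its shift was smaller, at -0.75, -0.27 and -0.11.

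Within one gene, probe sets seldom shifted together. Of 5338 genes with 2 or more probe sets at the level studied, 1766 had a shifted one, 1417 a higher and 396 a lower one. All probe sets were higher in 23 genes and lower in 10, which is 1.87% of the 1766, and 47 genes held both a higher and a lower one. In the other 1686 some probe sets shifted one way and the rest were not counted as shifted. The range between the shifts of one gene had a median of 0.83 and was over 1 in 2309 genes (43.3%).

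The 10 genes with the widest range showed this at single probe sets. Scd2, a stearoyl-CoA desaturase gene active in brain lipid synthesis, was level at 1415822_at, with 15.24 and 15.15 in number 2 and 15.15 on both arrays numbered 1. At 1415823_at it read 13.28 and 12.87 in number 2 and 9.80 and 9.90 in number 1. At 1415824_at it read 11.80 and 10.68 in number 2 and 3.77 and 4.37 in number 1, a shift of 7.18 ± 1.22 (SD, n = 2). Probe sets named for this one gene were therefore unshifted, higher by 3.22 and higher by 7.18. Where along a transcript the probe sets of a gene lie, and whether they read the same transcript, was not examined here. Gja1, the astrocyte gap junction gene, had its brightest probe set at 14.22 and 14.13 in number 2 and 14.22 and 14.20 in number 1, while 1415801_at read 11.10 and 9.59 in number 2 and 3.85 and 3.95 in number 1. Zfp365 behaved alike, with shifts of -0.15 and 6.62, as did Rasgrp1, an exchange factor gene for Ras, with -0.06 at the brightest probe set and 5.35, 3.35 and 6.75 at the others.

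Of these genes, Nfia, Tacc1 and Map1b had both higher and lower probe sets, and Washc4, Rnf14 and Arhgap32 had higher and unshifted ones. Nfia, a transcription factor gene of glial development, was at 11.21 and 11.54 in number 2 and 11.13 and 11.41 in number 1 at its brightest probe set. Its probe set 1438236_at read 7.92 and 8.37 in number 2 and 2.41 on both arrays numbered 1, whereas 1421163_a_at read 6.28 and 6.31 in number 2 and 7.52 and 8.38 in number 1. For Nfia one end of the range was thus a shift of 5.74 and the other -1.65. Tacc1, a centrosomal protein gene, held shifts of 0.16, -2.19 and 5.10. Map1b, a microtubule-associated protein gene of growing axons, was lower at 1450397_at, with a shift of -1.75, and higher at 1421851_at, with 10.60 and 9.70 in number 2 and 4.76 and 5.25 in number 1. Washc4, a subunit gene of an endosomal actin regulator, had -0.80 beside 6.11, 4.92 and 6.38. Rnf14, a ubiquitin ligase gene, had 0.57, 0.19, 2.30 and 7.01, and Arhgap32, above, had -0.06 at its second probe set.

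**Figure D3:**
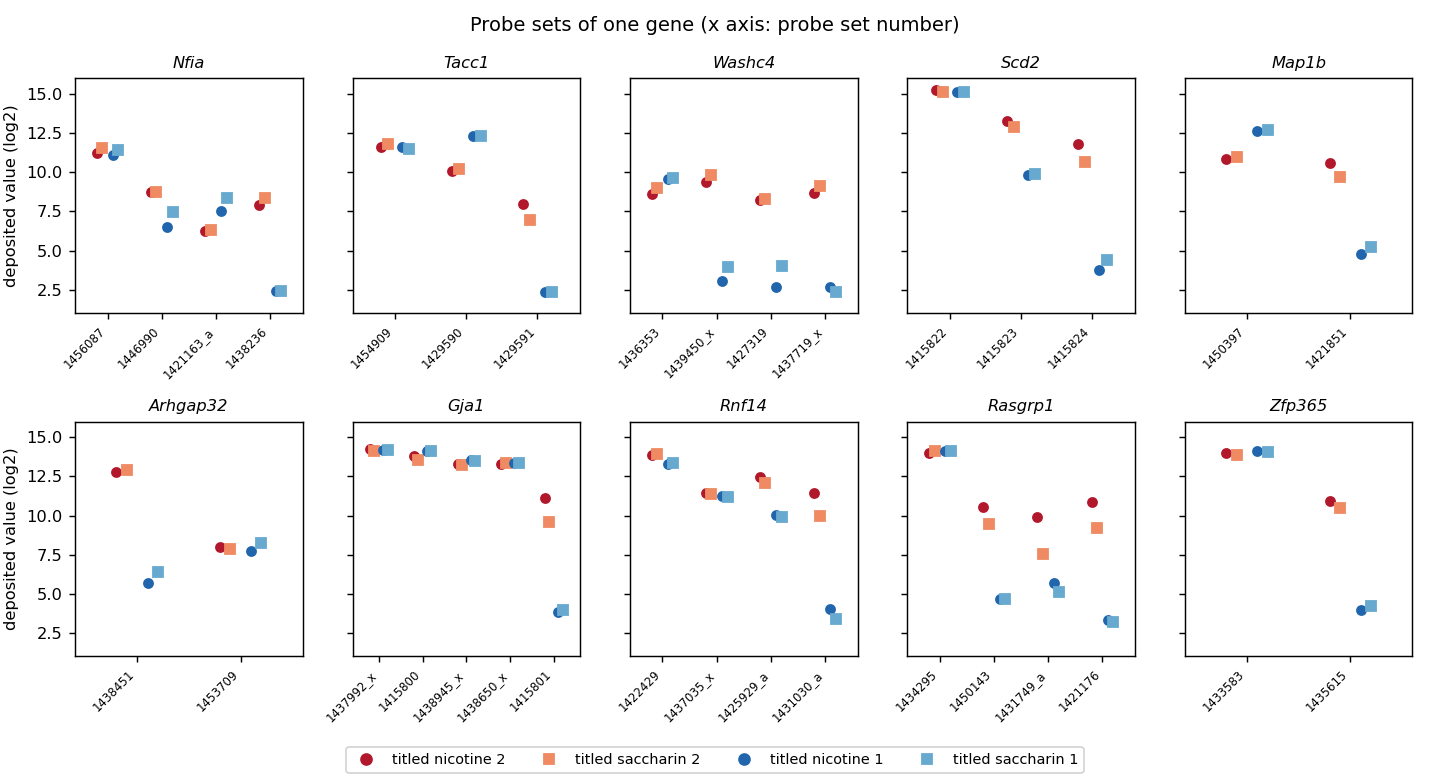
Log2 values (y axis) of every probe set at the level studied (x axis, by probe set number) of the 10 genes with the widest range of shifts. Within a probe set the symbols run from titled nicotine 2 and titled saccharin 2 (reds) to titled nicotine 1 and titled saccharin 1 (blues), and in Gja1, Zfp365 and Rasgrp1 the numbers coincide at the brightest probe set and part at dimmer ones.

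Other well-known genes also held both shifted and unshifted probe sets, unlike Gapdh above, whose 3 stretches were all under 2-fold. Besides its control stretches, Actb was read by 1436722_a_at with a shift of 0.83 and by 1419734_at with a shift of -2.59, where it stood at 12.21 and 12.22 in number 2 and at 14.89 and 14.73 in number 1. Mbp, which encodes a main protein of myelin, had 8 probe sets, and at the brightest of them, 1433532_a_at, it read 16.07 and 15.91 in number 2 and 16.07 and 16.02 in number 1. Of the other Mbp probe sets, 1451961_a_at was shifted by 2.34 and 1425263_a_at by 2.87. Mef2c, a transcription factor gene for which the study is known, had a shift of 0.15 at its brightest probe set and of 2.32 and 2.16 at 1421027_a_at and 1421028_a_at. The other gene for which the study is known, Ash2l, a subunit gene of histone methyltransferase complexes, had shifts of 0.25 and 0.22 and was not among the shifted.

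Which probe set of a gene was read therefore went with the count. Among genes with several probe sets, the one with the highest mean was higher in number 2 in 105 of 5338 genes (1.97%), while the other probe sets were higher in 1630 of 8657 (18.8%). Genes with a single probe set at the level studied were higher in 168 of 6867 (2.45%). On the lower side the shares lay closer, at 2.19% of the brightest, 3.81% of the others and 3.73% of the single ones. In the 1417 genes with a higher probe set, the brightest one had a median shift of -0.04 and lay within 0.5 of no shift in 1076. The rank itself uses the 4 arrays. With probe sets ranked on the arrays numbered 2 alone, a choice made after these values were seen, 4.07% of the brightest and 17.5% of the others were higher. Ranked on the arrays numbered 1 alone, the shares were 1.2% and 19.3%.

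The contrast between brightest and other probe sets was present at every level. Below a mean of 7, 24.3% of the other probe sets were higher in number 2, against 2.55% of the brightest of a gene. At means of 11 and above the shares were 10.5% of the others and 1.28% of the brightest. Over all probe sets without controls, higher ones made up 14.4%, 10.6%, 6.88% and 4.13% from the dimmest to the brightest of 4 equal classes of level, and lower ones 7.08%, 4.02%, 2.17% and 1.12%. Probe sets near the lowest value, below 3 on both arrays of the dimmer number, were only 109 of the higher (5.37%) and 30 of the lower (3.58%).

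**Figure D4:**
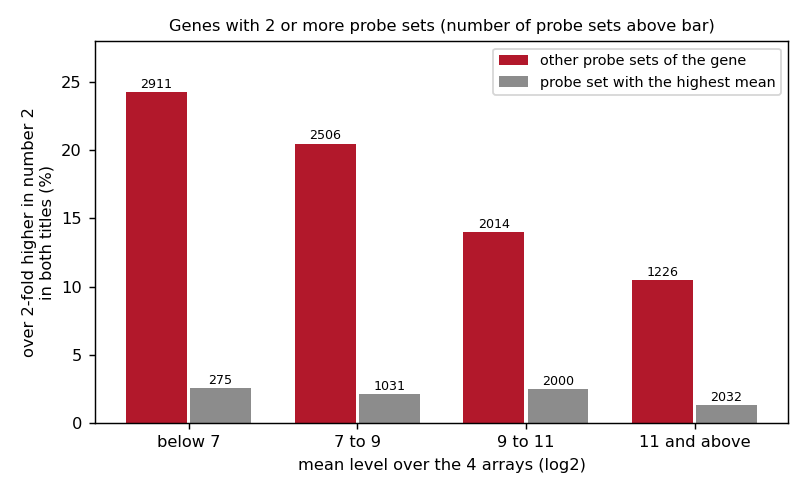
Share of probe sets over 2-fold higher in number 2 in both titles (y axis, percent) by mean log2 level (x axis), for genes with 2 or more probe sets. Red bars are the other probe sets of a gene and grey bars the one with the highest mean, with the number of probe sets above each bar, and the red bars exceed the grey ones at each level, from 24.3% against 2.55% to 10.5% against 1.28%.

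The kind of probe set and the length of the gene also went with the share of higher probe sets. The suffix of a probe set name tells how far its probes are shared. Those ending in _a_at, which read several transcripts of one gene, were higher in 14.1% (450 of 3183), those with no letter in 8.88%, and those ending in _s_at, shared between genes, in 6.4%. Those ending in _x_at, with probes that may cross-hybridise, were higher in 1.98% and lower in 3.63%. At the brightest probe set of each gene, 2.44% of those ending in _a_at, 2.42% of those with no letter, 0.598% of those ending in _s_at and 1.1% of those ending in _x_at were higher. By gene length in the RefSeq annotation of mouse assembly GRCm38.p6, known for 97.7% of named probe sets, the share of higher ones was 4.59% in the shortest of 4 equal classes, 7.63% and 11.3% in the middle ones and 13.3% in the longest. At the brightest probe sets the 4 length classes held 1.83%, 2.24%, 2.1% and 2.38%, so the gradient was carried by the other probe sets.

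Among the 33 genes in which every probe set shifted one way, named after their values were seen, 23 were higher. Kif1a, a motor gene of synaptic vesicle precursor transport, was shifted by 2.86 and 2.23. Kcnip3, a calcium-binding potassium channel partner gene, read 10.78 and 10.76 in number 2 and 8.33 and 8.05 in number 1 at one probe set, with a shift of 2.75 at the other. Srebf2, the main transcription factor gene of cholesterol synthesis, read 10.18 and 10.07 in number 2 and 8.90 and 8.91 in number 1, and its other probe set gave nearly the same shift, 1.26 against 1.22. The glycolytic gene Pfkl was higher by 2.12 and 2.63. Atp6v0a1, a proton pump subunit gene, had shifts of 1.66, 6.41 and 5.29, so agreement in direction still left a wide range. Of the 10 lower ones, Socs3, an inhibitor gene of cytokine signalling, was shifted by -1.51 and -1.73, Eya4 by -1.14 and -1.44 and the X-linked non-coding transcript Firre by -1.63 and -1.96.

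The list of nuclear long non-coding RNAs was lower in number 2 as a group. At the brightest probe set of each, 8 of 18 were lower and 0 higher, against 3.06% lower over all genes, and the median shift was -0.95 against -0.18. It was -1.02 in titled nicotine and -0.86 in titled saccharin. Many of the listed transcripts, though not all, remain largely in the nucleus, and several are imprinted or take part in X inactivation. Miat read 10.22 and 10.38 in number 2 and 11.76 and 11.83 in number 1, a shift of -1.49 ± 0.06 (SD, n = 2). Neat1, the scaffold of paraspeckles, read 8.05 and 8.68 in number 2 and 10.08 and 9.69 in number 1. Ftx, from the X inactivation centre, was shifted by -2.11, Rmst by -2.10, Kcnq1ot1 by -1.76 and Snhg1 by -1.15. Rian, an imprinted transcript, was shifted by -1.54 at its brightest probe set.

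Counting all 46 probe sets of these 18 transcripts, 20 were lower (43.5%) and 2 higher (4.35%), beside 3.72% and 9.0% of all probe sets. Of 11 Meg3 probe sets 5 were lower, and mean shifts ran from -1.43 to 0.16, with the brightest at -0.57. Gas5 was near level at its brightest probe sets, at -0.30 and -0.21, and lower at the others, by -1.85 and -1.77. Xist, which coats the inactive X chromosome in females, was divided: 1436936_s_at read 12.13 and 12.42 in number 2 and 13.63 and 13.54 in number 1. Its probe set 1427263_at read 6.76 and 7.78 in number 2 and 11.32 and 10.87 in number 1, whereas 1427262_at read 11.99 and 13.50 in number 2 and 10.96 and 10.72 in number 1. Rian was divided as well: of its 4 probe sets 1 was lower, the brightest, and 1 higher, 1428055_at, which read 8.56 and 10.35 in number 2 and 6.57 and 5.84 in number 1, and mean shifts ran from -2.12 to 3.25. Of 5 Malat1 probe sets 2 were lower and 0 higher: 1452378_at was shifted by -3.05, whereas 1438403_s_at had a mean shift of 1.61 but did not pass 2-fold in titled nicotine. All of these genes are read beside the poly-A, ribosomal and hybridization controls, which were lower in number 2 as well.

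Activity-induced immediate early genes, which neurons switch on within minutes of firing, did not have the same shift in both titles, a difference that was not tested. Of 36 at the level studied, 0 were higher and 2 were lower at the brightest probe set, against 2.24% and 3.06% of all genes. Their median shift was -0.95 in titled nicotine and 0.02 in titled saccharin. Titled nicotine 2 was the lowest of the 4 arrays for 27 of them, which is also the case for 44.9% of all genes. Arc, a synaptic plasticity gene, read 9.19 and 11.02 on titled nicotine 2 and titled saccharin 2, against 11.26 and 10.18 on titled nicotine 1 and titled saccharin 1. Npas4 read 6.89 and 8.43 in number 2 and 8.15 and 7.66 in number 1. For both genes the array of number 2 was the lower one in titled nicotine and the higher one in titled saccharin. The 2 lower genes were Nptx2, a secreted synaptic pentraxin gene, at 8.81 and 8.53 in number 2 and 10.22 and 9.76 in number 1, and Midn, shifted by -1.26. The other Nptx2 probe set had a mean shift of 0.11.

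Glucocorticoid-responsive genes, targets of the stress hormone receptor, had a median shift of -0.52, which was -0.85 in titled nicotine but -0.17 in titled saccharin. Of 22, none was positive in both titles and 16 were negative in both, while 59.6% of all genes were negative in both. At the brightest probe set 0 were higher and 2 lower (9.09%), against 2.24% and 3.06% of all genes. Counting every probe set, 3 of 42 were higher (7.14%), in 3 genes, and 5 lower (11.9%), in 3 genes. Of all probe sets, 9.0% were higher and 3.72% lower. Klf9, a hormone-induced transcription factor gene, read 13.68 and 13.86 in number 2 and 15.15 and 15.23 in number 1 at its brightest probe set, yet its next probe set was level at -0.12 and its 6 probe sets ran from -2.10 to 0.88. Plin4, a lipid droplet protein gene, was shifted by -2.20. The hormone-induced genes Sgk1 and Fkbp5 had mean shifts of -0.62 and -0.33, and neither was counted as shifted. Dusp1 and Per1 belong to this list and to the activity genes, and Per1 to the clock genes as well.

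Circadian clock genes did not move as one group. Of 22, 2 were higher and 2 lower, with a median shift of -0.07. Besides Nr1d1, the transcription factor gene Hlf was higher, at 12.61 and 12.65 in number 2 and 11.30 and 11.39 in number 1, but its other probe set had a shift of -0.21. Nfil3, a repressor gene, was shifted by -1.73 and Per3 by -1.17. Of 4 Per3 probe sets 2 were lower and 0 higher, and mean shifts ran from -1.45 to 1.03. Dbp, an output gene with a strong daily rhythm, had a mean shift of 0.00 and Arntl, which encodes the BMAL transcription factor, of -0.39. Over all 49 clock gene probe sets, 13 were higher (26.5%) and 3 lower (6.12%), beside 9.0% and 3.72% of all probe sets. At the brightest probe set of each gene, the stress lists held 0 to 2 shifted genes each, beside 2.24% higher and 3.06% lower of all genes. Of 25 heat shock genes 0 were higher and 1, Hsf2, was lower (4.0%). Of 24 unfolded protein response genes 0 were higher and 2 lower (8.33%), with shifts of -1.18 for Pdia4 and -1.52 for Sdf2l1. No gene of 18 in the hypoxia list was shifted at its brightest probe set. Counting every probe set, 4 of 37 hypoxia ones were higher (10.8%), in 3 genes, and 0 lower. Of 48 heat shock ones, 5 were higher (10.4%), in 4 genes, and 2 lower (4.17%). Of 48 unfolded protein response ones, 3 were higher (6.25%), in 1 gene, and 2 lower (4.17%). These stand beside 9.0% higher and 3.72% lower of all probe sets.

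**Figure D5:**
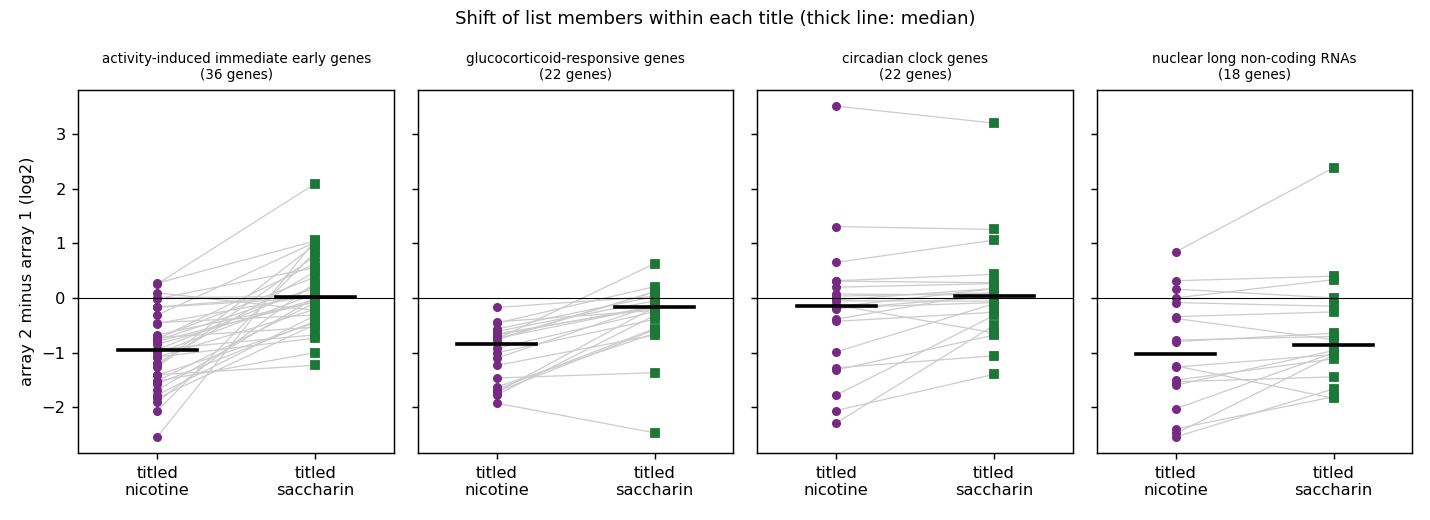
Shift of each gene (points, log2, y axis) within titled nicotine and titled saccharin (x axis) for 4 groups of genes, with grey lines joining the same gene and thick lines for medians. The median of the activity genes is -0.95 in titled nicotine and 0.02 in titled saccharin, while that of the nuclear long non-coding RNAs is -1.02 and -0.86.

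Among markers of cortical neurons, 16 of 19 upper layer and 21 of 23 deep layer genes measured were at the level studied, a mean over the 4 arrays. Y-linked genes stood near the lowest value, with all 12 probe sets below 3 on each array. Most marker lists had medians close to that of all genes. In a tissue sample, fewer cells of a type and less RNA per cell cannot be told apart. Of 16 upper layer, 21 deep layer and 24 interneuron marker genes, 0 were shifted at the brightest probe set, with medians of -0.13, -0.22 and -0.28. Counting every probe set, 9 of 30 upper layer ones were higher (30.0%), in 5 genes, as were 5 of 41 deep layer (12.2%) and 2 of 34 interneuron ones (5.88%), beside 9.0% of all probe sets. At the brightest probe set, microglia markers had a median of -0.36, with 0 of 24 shifted and 16 negative in both titles, as were 59.6% of all genes. Of 29 oligodendrocyte and myelin markers 2 were lower there (6.9%, beside 3.06% of all genes), Nkx6-2 by -1.04 and Enpp6 by -1.38, and the median was -0.12. Counting every probe set, 7 of 53 oligodendrocyte and myelin ones were higher (13.2%), in 6 genes, and 2 lower (3.77%).

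At the brightest probe set, where 2.24% of all genes were higher and 3.06% lower, single markers stood apart from their groups. Of 23 astrocyte markers 1 was higher, Gfap, the intermediate filament gene of astrocytes, at 10.02 and 9.79 in number 2 and 6.55 and 6.84 in number 1. The Gfap probe set 1440142_s_at had the opposite sign, with a shift of -0.86, and the median of the astrocyte list was 0.02. Over all 51 astrocyte probe sets 13 were higher (25.5%), in 10 of the 23 genes. Of 25 vascular markers, Bsg alone was shifted at the brightest probe set, higher by 1.45. Counting every probe set, 5 of 35 vascular ones were higher (14.3%), in 3 genes, and 1 lower (2.86%), beside 9.0% and 3.72% of all probe sets. Tcf7l2, a transcription factor gene of thalamus, was the 1 of 16 thalamic and habenular markers to shift at the brightest probe set, at -2.53. Over all 27 thalamic and habenular probe sets, 4 were higher (14.8%), in 2 genes, and 1 lower (3.7%). Of 5 hypothalamic markers, Nnat was higher by 2.17 and Cartpt lower, with a shift of -1.10. The growth factor gene Igf2 was higher by 1.08. At the brightest probe set it is the only shifted gene of both the 16 meningeal and the 8 choroid plexus markers. Counting every probe set, 2 of 25 meningeal ones were higher (8.0%), in 2 genes, and 1 of 13 choroid plexus ones (7.69%). Ttr, the main choroid plexus transcript, was at 13.96 and 10.75 in number 2 and at 12.01 and 11.84 in number 1, so it divided the arrays of number 2. Summed over the choroid markers, the level was 14.26 in number 2 and 13.66 in number 1 on the log2 scale, but the titles went opposite ways. The sum was 14.75 on titled nicotine 2 against 13.70 on titled nicotine 1, and 13.51 on titled saccharin 2 against 13.62 on titled saccharin 1. The list's median shift was 0.18 in titled nicotine and -0.33 in titled saccharin. Its part in the shifts was not tested.

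At the brightest probe set of each gene, the abundant machinery of the cell stayed near level. Of 53 cytosolic ribosomal protein genes 0 were shifted, with a median of 0.01. Respiratory chain genes had a median of -0.04 with 1 of 50 shifted, Sdhc, higher by 1.18, and proteasome genes 0.08 with 1 of 31, Psmb7. Psmb7, a catalytic subunit gene, read 13.44 and 13.22 in number 2 and 10.65 and 10.56 in number 1. Splicing factors and RNA-binding proteins had a median of -0.29, with 30 of 40 negative in both titles, as were 59.6% of all genes. At the brightest probe set Rbfox2 alone was shifted and was higher. Counting every probe set, 13 of 137 were higher (9.49%), in 11 genes, and 5 lower (3.65%), in 4 genes, beside 9.0% and 3.72% of all probe sets. Histone lysine methyltransferase and demethylase genes had a median of -0.37, with Kdm5b, an eraser gene, higher by 2.02 and Setd1b, a writer gene, shifted by -1.33. The other Kdm5b probe set at the level studied had a mean shift of -0.07. Counting every probe set of this list, 10 of 61 were higher (16.4%), in 8 genes, and 1 lower (1.64%). Centring the arrays moves the median of all genes to -0.34 and all lists with it, which turns the small positive medians of ribosomal, proteasome, astrocyte, cytoskeleton and cholesterol genes negative.

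Among channels and receptors, as among the markers above, the count depended on the probe set. At the brightest probe set 2.24% of all genes were higher and 3.06% lower. Of 30 potassium channel genes, 3 were higher at the brightest probe set and 0 lower, but 16 of their 67 probe sets were higher (23.9%), in 13 genes, beside 9.0% of all probe sets. Kcnma1, the large-conductance calcium-activated channel gene, read 12.21 and 12.25 in number 2 and 10.27 and 10.15 in number 1 at 1424848_at. At 1457018_at the same gene read 3.97 and 4.12 in number 2 and 7.40 and 7.53 in number 1. Kcnh3 was higher by 1.83. Of 12 GABA-A receptor subunit genes 1, Gabrg3, was higher at the brightest probe set, by 1.79, against 11 of 28 probe sets (39.3%) in 7 genes. Among 23 glutamate receptor genes, Cacng3, an AMPA receptor auxiliary subunit gene, and Grik5 were higher (8.7%), by 2.32 and 1.88, and Grik1 lower (4.35%), with a shift of -1.86. Counting every probe set, 5 of 39 glutamate receptor ones were higher (12.8%), in 5 genes, and 1 lower (2.56%), beside 9.0% and 3.72% of all probe sets. None of 3 nicotinic receptor subunit genes was shifted at the brightest probe set. Chrna4, which encodes a main neuronal subunit, had a shift of -0.02 there, while its probe set 1421203_at read 7.82 and 7.97 in number 2 and 6.46 and 6.58 in number 1. Of 21 cholesterol genes, Srebf2 and the sterol carrier gene Stard4 were higher, the second at 10.40 and 10.34 in number 2 and 8.43 and 8.40 in number 1, while the median of the list was 0.06. Of 3 Stard4 probe sets 2 were higher, and mean shifts ran from -0.21 to 3.00. Counting every probe set of the cholesterol list, 5 of 35 were higher (14.3%), in 3 genes, and 0 lower. Of 25 cytoskeleton genes, Map1a was higher by 1.39 and Map1b lower, as given above. The other Map1a probe set had a mean shift of 0.00. Of all 54 cytoskeleton probe sets, 5 were higher (9.26%), in 4 genes, and 4 lower (7.41%), in 2 genes.

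The authors' deposited table gives a mean level for each probe set, without saying which arrays it covers. In 2025 of the 2029 higher probe sets (99.8%), the mean of the authors' deposited table lay nearer to the arrays numbered 1 than to those numbered 2. That mean minus the mean of an array number had a median of -2.65 for number 2 and -0.29 for number 1. Of the 838 lower ones, the mean of the authors' deposited table was nearer number 1 in 585 (69.8%), and these differences had medians of 0.95 for number 2 and -0.67 for number 1. For the 19661 probe sets that were not shifted, they were -0.23 for number 2 and -0.39 for number 1. The authors' deposited table holds 14 probe sets with an adjusted p below 0.05, of which 2 were at the level studied and 0 were among the shifted.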

How the data were processed

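Values of 4 arrays were used as deposited by the authors, as log2 expression values per probe set, a scale read from the values, which run from 2.10 to 16.55. How background was corrected and probes were summarised is not given in the sources used here. The authors' deposited table of a limma fit, a tool credited in the submitters' processing notes, holds log2 mean levels and fold changes, raw and adjusted p-value columns, and a score for the moderated statistic and the log odds, per the file headers.

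Samples were grouped by title and number. The shift, array 2 minus array 1 within each title, was computed in Python 3.11.15 (pandas 2.3.3, numpy 2.4.6) with no further scaling, and the counting was checked on simulated data. Replicate spread is between 2 titles, and no test was made. The members and all 34 gene lists were chosen with earlier results of these data known.

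Symbols came from the authors' deposited table: 35358 of 38323 matched RefSeq (GRCm38.p6), 3214 under an updated symbol, and 6778 probe sets had none, 58 because a spreadsheet made dates of them. A gene is represented by its probe set with the highest mean. Genes named are the 15 with the largest smaller shift of the 2 titles in each direction, up to 4 per list with further activity, glucocorticoid and clock genes, the 10 with the widest range between probe sets, and the 10 with the largest opposite shifts. A few of the genes so chosen are not reported here. Those chosen after their values were seen are Mbp, Ash2l, Mef2c, Chrna4, Gapdh, Tfrc, the genes with every probe set shifted, and single probe sets of Meg3, Gas5, Rian and Malat1. Alternatives were quantile normalization, centring, filters on level, other folds, other units, leaving out each array, and, added after the data were seen, leaving out control probe sets or probe sets near the lowest value and other ranks within a gene.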

Additional observations from a re-analysis of the deposited data

Results flagged for a closer look

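In 33 of 12205 genes (0.27%), each at its brightest probe set, the array numbered 2 differed from the array numbered 1 in one direction in titled nicotine and in the other direction in titled saccharin, each by over 0.5 on the log2 scale. The 10 with the largest opposite shifts and 3 activity genes named above are given here, and the difference between the titles was not tested. The activity genes Egr2 and Fos were among the 10. Egr2, a zinc finger transcription factor gene, read 7.42 and 10.46 on titled nicotine 2 and titled saccharin 2, and 9.96 and 9.40 on titled nicotine 1 and titled saccharin 1. Its shift was -2.54 in titled nicotine but 1.05 in titled saccharin, and the difference between titles was -3.60. For Fos the shifts were -1.24 and 0.98, a difference of -2.22. Arc, Npas4 and Dusp1, outside the 10, had differences of -2.90, -2.03 and -1.38. Ttr, which encodes the thyroid hormone carrier of the choroid plexus, went the other way, with 1.95 in titled nicotine but -1.09 in titled saccharin and a difference of 3.03, and its 3 other probe sets had the same signs. The remaining differences between titles, titled nicotine minus titled saccharin, were -3.49 for 6720477C19Rik, -3.36 for Hpvc-ps, -3.00 for 9630021D06Rik, -2.95 for D10Ertd709e, -2.81 for 5330406M23Rik, -2.58 for AA415038 and -2.55 for B930025B16Rik.

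The authors' deposited table gives mean levels that the arrays used here do not hold. Ddx3y, a gene of the Y chromosome, has a mean of 7.26 in the authors' deposited table at its brightest probe set there, and Eif2s3y has 6.10. All 12 probe sets of Ddx3y, Eif2s3y, Kdm5d and Uty read below 3 on each of the 4 arrays, which the labels give as female.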

How the results depend on the processing

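Main counts were 2029 probe sets higher and 838 lower. Quantile normalization, no filter on level, leaving out controls, and leaving out probe sets near the lowest value kept both counts within 1.5 times. Centring gave 1276 lower. At a level at or above the 75th percentile the counts were 621 higher and 190 lower, at over 4-fold 880 and 147, and at over 1.5-fold 2528 lower. With 1 probe set per gene they were 273 higher and 373 lower, and with a gene's probe sets averaged 551 and 234, so the direction of the balance depends on the unit counted. Leaving out 1 array leaves the pair of the other title alone: the counts then ranged from 2533 to 2662 higher and from 1190 to 2044 lower, the highest lower count coming from titled nicotine. At the 75th percentile, 527 genes had a shifted probe set and 10 had all shifted one way. Ranked on number 2, 217 brightest probe sets were higher, and ranked on number 1, 64. None of the 30 genes with the largest shifts changed sign under quantile normalization, centring or averaging. As they were chosen for the size of their shifts, this outcome was largely set in advance. Averaging cannot alter those with a single probe set at the level studied. Leaving out an array could not change the sign of any of the 30, since they were chosen for shifting one way in both titles. The median shift of all genes was -0.18, -0.21 after quantile normalization, -0.34 after centring and -0.08 with probe sets averaged. Medians of lists move with it: under centring 30 of 34 moved by more than the SD between titles. Shifts were taken within each title, so the arrays were paired by title. The array number could not serve as a block, because it is itself the comparison, and no test was made on it. The causes were not tested. The number of arrays limits every value, and values near 2.10 have no order.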
